A study of Mus musculus with 6 samples.

Results

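The cytochrome P450 genes of families 1, 2 and 3 were followed here in mouse liver that lacks one of them, Cyp2e1. Members were all rows of the expression table whose symbol starts with Cyp1, Cyp2 or Cyp3 followed by a subfamily letter and a number. Cyp2e1, the gene that was knocked out, was left out. This gave 48 members of 15960 genes in the table. Liver RNA came from mice of the strain C57BL/6, in 3 Cyp2e1-/- (knockout) and 3 Cyp2e1+/+ (wild type) samples. The labels do not say whether each sample came from a separate mouse. The mice were 22 weeks old and, per the series design, had eaten a high-fat diet for 14 weeks. The diet was thus common to both groups. The labels name no targeting construct or tissue-specific driver, and each library is one titled sample of liver. Sex is not among the labels used here, which bears on the sex-biased members below.

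P450s of these families are heme enzymes of the endoplasmic reticulum that oxidize drugs, pollutants, steroids, retinoids and fatty acids. They take electrons from the reductase encoded by Por, some with help from cytochrome b5. Many are made mainly in hepatocytes, and their transcription is set by HNF4α together with receptors that sense chemicals. The receptor CAR (gene Nr1i3) is best known for driving Cyp2b10, PXR (Nr1i2) for Cyp3a11 and the aryl hydrocarbon receptor (Ahr) for Cyp1a1 and Cyp1a2. CYP2E1, their relative, handles small molecules, ethanol among them.

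The table gives FPKM, fragments counted for a gene scaled to transcript length and to library size, for each gene and library. Summed FPKM ranged from 562590 to 624264 between libraries. Cyp2e1 stood at 254, 247 and 271 FPKM in knockout replicates 1, 2 and 3, and at 7427, 5942 and 6071 FPKM in wild type replicates 1, 2 and 3, so every library matched its genotype label (log2 fold change -4.64, SE 0.13; limma, adjusted p = 6.7e-08). In each wild type library it was the most abundant gene of the 3 families, and in the knockouts it ranked 9, 9 and 7. Replicate 1 of both genotypes stood apart: 2408 of 9968 tested genes (24.2%) had their lowest 2 values in these libraries, and 644 (6.46%) their highest 2. Among the 34 tested members 5 had their lowest 2 and 7 their highest 2 values there. Hepatocyte markers were high in every library, with Alb between 24938 and 33779 FPKM, and all 4 cholangiocyte markers stayed under 1 FPKM. The sum of the 5 macrophage markers ranged from 36.4 to 70.2 FPKM over knockout libraries and from 69.4 to 78.9 over wild type libraries. None of the 5 passed the test described below with all libraries and 4 had negative fold changes, and those 4 fell when replicate 1 of both genotypes was left out. Their part in the results was not tested. In whole liver, fewer cells of a type and less RNA per cell cannot be told apart.

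Sequences upstream of the annotated start are shown for the members that carried the main differences described below. They are the 250 bases before the start on the gene's own strand, from RefSeq on build GRCm38.p6, the assembly that mm10 names. Capitals mark CAAAGTCCA, a motif bound by HNF4α. Cyp2b10 lies at chr7:25897408-25897657 (plus strand), Cyp3a11 at chr5:145879855-145880104, Cyp2c67 at chr19:39649043-39649292, Cyp2c68 at chr19:39741102-39741351, Cyp2c40 at chr19:39812815-39813064 and Cyp2c70 at chr19:40187287-40187536 (all minus strand). The Cyp2c67 window lies partly inside the annotated gene span, since the start used for it is not the end of that span.
Cyp2b10: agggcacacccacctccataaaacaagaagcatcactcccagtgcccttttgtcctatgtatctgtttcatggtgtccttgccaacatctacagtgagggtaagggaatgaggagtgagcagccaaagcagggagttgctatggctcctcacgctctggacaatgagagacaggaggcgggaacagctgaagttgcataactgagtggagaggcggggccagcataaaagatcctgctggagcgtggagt
Cyp3a11: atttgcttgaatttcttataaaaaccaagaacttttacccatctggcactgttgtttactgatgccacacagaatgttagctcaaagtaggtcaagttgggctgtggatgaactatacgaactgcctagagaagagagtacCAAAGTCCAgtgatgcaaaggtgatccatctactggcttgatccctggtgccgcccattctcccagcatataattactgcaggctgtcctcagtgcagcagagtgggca
Cyp2c67: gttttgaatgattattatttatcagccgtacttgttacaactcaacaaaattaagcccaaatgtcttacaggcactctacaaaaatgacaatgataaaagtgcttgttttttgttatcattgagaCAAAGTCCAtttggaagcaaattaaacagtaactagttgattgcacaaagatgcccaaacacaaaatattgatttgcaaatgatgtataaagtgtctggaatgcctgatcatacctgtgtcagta
Cyp2c68: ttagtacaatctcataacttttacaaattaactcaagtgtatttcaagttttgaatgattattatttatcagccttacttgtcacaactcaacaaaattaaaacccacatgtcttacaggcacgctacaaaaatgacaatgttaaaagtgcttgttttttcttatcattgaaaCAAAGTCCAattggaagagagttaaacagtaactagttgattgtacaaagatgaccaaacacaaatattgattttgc
Cyp2c40: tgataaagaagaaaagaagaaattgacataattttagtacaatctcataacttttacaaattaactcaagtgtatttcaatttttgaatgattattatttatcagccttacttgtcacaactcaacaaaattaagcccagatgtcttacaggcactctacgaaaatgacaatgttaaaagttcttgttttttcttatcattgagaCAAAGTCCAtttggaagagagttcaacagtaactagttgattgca
Cyp2c70: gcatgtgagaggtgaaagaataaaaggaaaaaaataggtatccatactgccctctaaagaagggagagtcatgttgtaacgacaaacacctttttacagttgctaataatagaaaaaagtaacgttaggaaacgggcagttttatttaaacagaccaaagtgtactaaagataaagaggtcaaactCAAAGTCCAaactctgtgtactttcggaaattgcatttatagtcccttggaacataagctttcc

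Of the members, 28 of 34 tested ones matched a window in the RefSeq table, and 6 motifs were searched on both strands of these 250 bases. A member was counted once if any of its windows held the motif, while the shares over all genes are per window. Some members have several windows, so these measures are not alike. CAAAGTCCA was found upstream of 5 of the 28, namely Cyp2c40, Cyp2c67, Cyp2c68, Cyp2c70 and Cyp3a11, and in 126 of 32851 windows of all genes (0.384%). Of the 38 members with a window, tested or not, 6 held it. The untested one was Cyp3a41a, at 0.04 FPKM or less in every library. The motif began 125 bases before the start in Cyp2c67, 77 in Cyp2c68, 45 in Cyp2c40, 64 in Cyp2c70 and 109 in Cyp3a11. The windows of Cyp2c67, Cyp2c68 and Cyp2c40 are near copies of one another with offset starts: 207 of 217 aligned bases were identical between Cyp2c68 and Cyp2c40 and 187 of 201 between Cyp2c67 and Cyp2c68. Their shared motif is therefore not a separate match in each. The TATA box TATAAA was found upstream of 15 of 28 tested members and in 12.4% of all windows, and the C/EBP motif TTGCNNAA upstream of 7 and in 9.56%. The receptor hexamers AGGTCA and AGTTCA were found upstream of 8 and 4 (14.0% and 11.8% of all windows), and the STAT5 motif TTCNNNGAA upstream of none (7.02%). In the Cyp3a11 window the matches of the 4 motifs it holds did not overlap one another. A match in letters is a description of the window and was not tied to binding.

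The first comparison sets the summed level of the other P450s beside the loss of Cyp2e1. In FPKM as deposited the knockout sums were slightly lower, and this separation of the genotypes did not hold once libraries were scaled. The members summed to 4713, 4779 and 4701 FPKM in knockout replicates 1, 2 and 3. The wild type sums of replicates 1, 2 and 3 were 5067, 4869 and 4936 FPKM. All knockout sums lay below all wild type sums as deposited. With each library scaled to the same total, or divided by its median ratio to the others, the genotypes overlapped. As a share of a library's total FPKM the members made up 0.803%, 0.814% and 0.814% in knockout replicates 1, 2 and 3 and 0.812%, 0.866% and 0.869% in wild type replicates 1, 2 and 3. The deposited means were 4731 ± 41.8 and 4957 ± 100.3 FPKM (SD, n = 3 each), a ratio of 0.954. Cyp2e1 dropped by 6223 FPKM and the members' sum dropped by 226 FPKM, so that the members with Cyp2e1 added stood at 0.436 of the wild type sum. A sum over chosen genes was given no test, and with median-ratio scaling the log2 ratio of the members' sums was -0.04 in place of -0.07. Cyp2e1 made up 1.06% to 1.19% of a wild type library's FPKM.

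**Figure D1:**
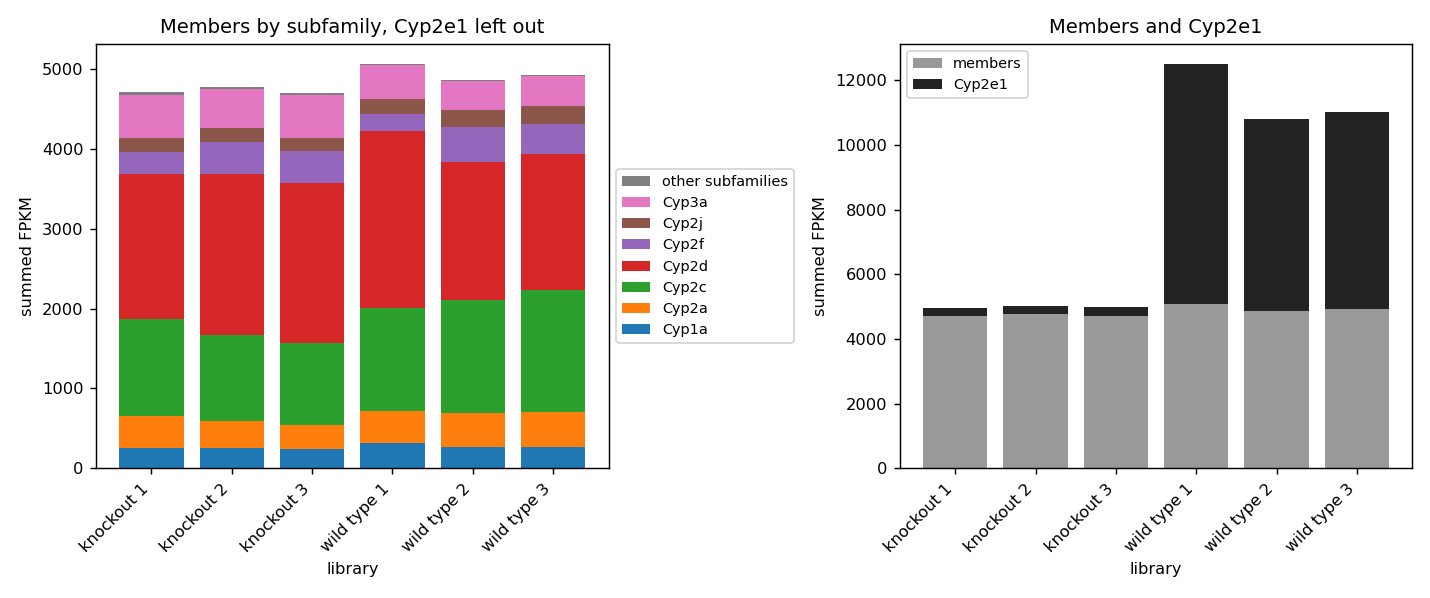
Summed FPKM in each of the 6 libraries, for the members by subfamily (left) and for the members with Cyp2e1 on top (right); bars start at 0. The members' sums lie between 4701 and 5067 FPKM in all libraries while Cyp2e1 falls from a mean of 6480 to 257 FPKM.

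The subfamily sums differed in direction. Cyp3a summed to 544, 489 and 538 FPKM in knockout replicates 1, 2 and 3, against 425, 365 and 384 in wild type replicates 1, 2 and 3, without overlap (ratio 1.34). Cyp2c was lower, with 1222, 1081 and 1032 FPKM in the knockout and 1289, 1419 and 1531 in wild type (ratio 0.787). The Cyp2a sum was 391, 340 and 298 FPKM in the knockout against 411, 433 and 448 (ratio 0.797), and the Cyp2j sum 175, 166 and 163 against 186, 211 and 218 (ratio 0.820). As deposited the genotypes were separate in these 4 subfamilies. Under both scalings Cyp3a stayed separate, while in Cyp2c, Cyp2a and Cyp2j knockout replicate 1 exceeded wild type replicate 1 and the genotypes overlapped. Cyp2d, the most abundant subfamily, ran from 1820 to 2019 FPKM in the knockout and from 1703 to 2212 in wild type, which overlap (ratio 1.03). The low Cyp2b sum was 26.46, 20.85 and 18.69 FPKM in the knockout against 5.24, 9.09 and 8.45 (ratio 2.90). It was separate as deposited and under both scalings. Cyp1a had a ratio of 0.905 and was separate as deposited and with the same total, but overlapped with median-ratio scaling. Cyp2f, which is Cyp2f2 alone, had a ratio of 1.04 and overlapped. The 5 most abundant members held 51.0% of the members' sum in the knockout and 47.9% in wild type.

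The second comparison tested each gene between genotypes with limma on log2(FPKM + 1), for genes at 1 FPKM or more in at least 3 libraries, with Benjamini-Hochberg adjustment over all 9968 tested genes. Of the 48 members 34 were tested, and 33 of these reached 1 FPKM in all 6 libraries. Cyp2b10 rose and Cyp2c67 fell (adjusted p under 0.05), and 32 did not pass. Over all tested genes 0.472% rose and 0.291% fell, 0.762% in all. An unadjusted p under 0.05 was reached by 11 of 34 members and 9.93% of all tested genes. Values of the 2 genotypes were fully separate in 13 of 34 tested members, 5 higher and 8 lower in the knockout, against 15.4% of all tested genes (5.32% higher and 10.0% lower). With libraries scaled to the same total 10 of 34 members were separate, 5 higher and 5 lower, and Cyp2a12, Cyp2c40 and Cyp2j6 no longer were. With median-ratio scaling 7 were separate, Cyp2b10, Cyp2d40, Cyp3a11 and Cyp3a25 higher and Cyp2c67, Cyp2c68 and Cyp2j5 lower. The share of separate genes over all tested genes was taken only as deposited, so these scaled counts have no such share beside them. Overlap is given below for FPKM as deposited. The median log2 fold change was -0.13 over the 34 members and -0.03 over all tested genes. Fold changes are knockout minus wild type and were under 0.5 in size for 26 of the 34.

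**Figure D2:**
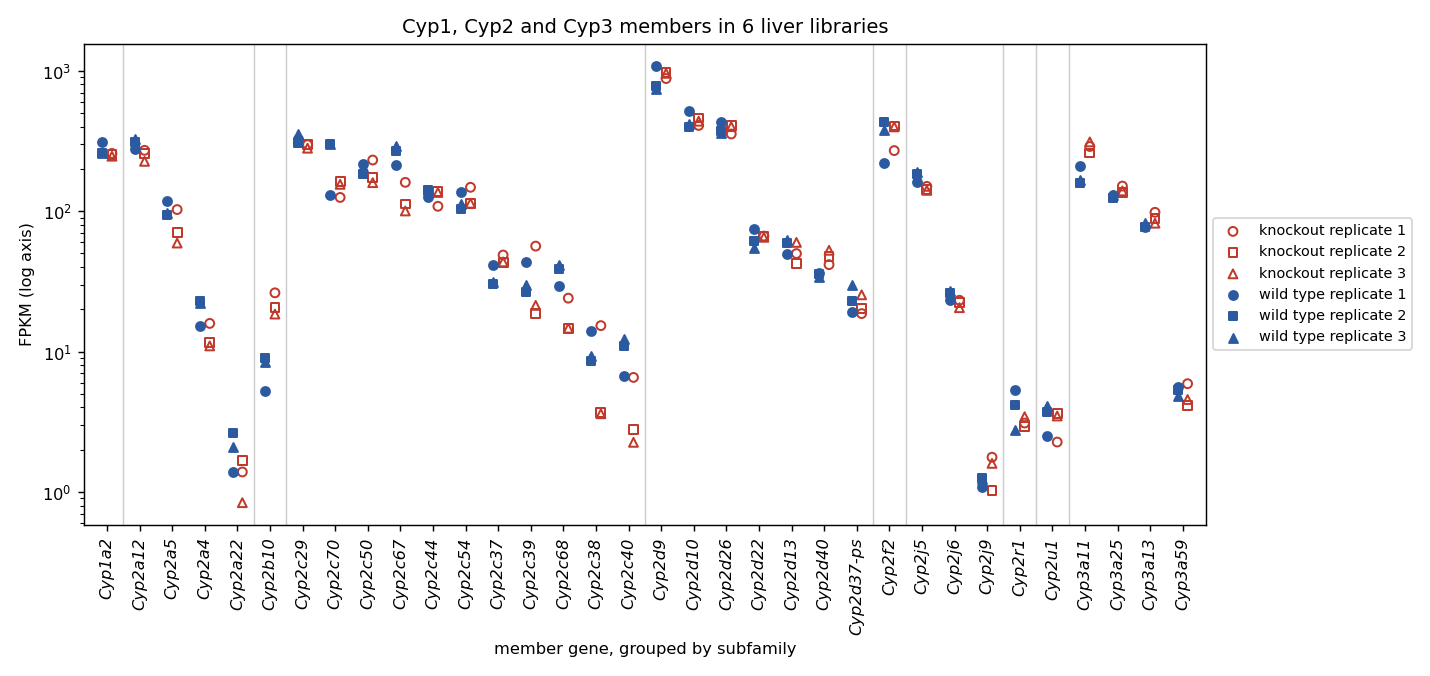
FPKM on a log axis of the 34 tested members in each library (open red symbols knockout, filled blue symbols wild type; circle, square and triangle for replicates 1, 2 and 3), grouped by subfamily. Cyp2b10 and Cyp3a11 are higher in all knockout libraries and Cyp2c67 and Cyp2c68 lower in all of them.

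Cyp2b10 encodes the classic CAR-induced P450 of mouse liver (gene 13088, chromosome 7, 25897658 to 25926624, GRCm38). It stood at 26.2, 20.7 and 18.5 FPKM in knockout replicates 1, 2 and 3, against 5.24, 9.03 and 8.45 in wild type replicates 1, 2 and 3. Every knockout value was above every wild type value, and the 2 replicate 1 libraries were the extremes, highest of the knockouts and lowest of the wild types. The mean ratio was 2.88 (log2 fold change 1.43, SE 0.20; limma, adjusted p = 0.011). It did not pass with a replicate block (limma, adjusted p = 0.060), when knockout replicate 2 was left out (0.064) or with no filter on low values (0.067). Restricted to replicates 2 and 3, Cyp2b10 passed (limma, adjusted p = 6.0e-04), with a log2 fold change of 1.08 and an SE of 0.11. Cyp2b13, the other Cyp2b member and a female-biased gene, was listed at 0.24, 0.18 and 0.18 FPKM in the knockout and 0, 0.06 and 0 in wild type, too low to be tested. Cyp2b10 shares 18.1% of its 31-base words with other genes of these families, so a small part of its reads could be divided between copies.

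Cyp3a11, the main PXR-driven Cyp3a enzyme of mouse liver (gene 13112, chromosome 5, 145854607 to 145879854), had 289, 260 and 312 FPKM in knockout replicates 1, 2 and 3. Wild type replicates 1, 2 and 3 had 211, 159 and 166 FPKM. The groups did not overlap, and replicate 1 was the highest wild type library. The ratio was 1.60 and the log2 fold change 0.69 (SE 0.14), which did not pass (limma, adjusted p = 0.070). It passed without wild type replicate 1 (limma, adjusted p = 0.016), in replicates 2 and 3 alone (8.2e-04) and with each library scaled to the same sum (0.035). Without Cyp3a11 the Cyp3a sum had a ratio of 1.12. Cyp3a25, nearby on the chromosome, was at 151, 136 and 140 FPKM in the knockout and 130, 123.2 and 131 in wild type, also without overlap (log2 fold change 0.15, 95% interval -0.10 to 0.39; limma, adjusted p = 0.73). Cyp3a13 (log2 fold change 0.18) and Cyp3a59 (-0.10) did not pass. Cyp3a25 and Cyp3a59 share 41.2% of the words of Cyp3a25, so their values are uncertain as separate genes. Cyp3a41a and Cyp3a44, genes of female mouse liver, were at most 0.11 FPKM in every library.

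The Cyp2c genes, whose enzymes oxidize drugs, arachidonic acid and bile acids, lie in a row on chromosome 19, apart from Cyp2c44, which lies further along. Cyp2c67 (gene 545288, chromosome 19, 39608844 to 39649079) stood at 160, 112 and 100.4 FPKM in knockout replicates 1, 2 and 3. Wild type replicates 1, 2 and 3 had 213, 268 and 293 FPKM. All knockout values were below all wild type values, and the replicate 1 libraries lay closest to each other. The ratio was 0.482 (log2 fold change -1.06, SE 0.19; limma, adjusted p = 0.037). It did not pass when knockout replicate 2 or 3 was left out (limma, adjusted p = 0.19 and 0.14), and the same held for replicates 2 and 3 of the wild type (0.17 and 0.17). Nor did it pass with a replicate block (limma, adjusted p = 0.12), no filter (0.14), no variance trend (0.058) or median-ratio scaling (0.074). It held without replicate 1 of both genotypes (log2 fold change -1.39, SE 0.08; limma, adjusted p = 2.0e-05).

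The neighbours of Cyp2c67 on the chromosome, Cyp2c68 and Cyp2c40, lay in the same direction without passing the test. Cyp2c68 had 24.02, 14.6 and 14.7 FPKM in knockout replicates 1, 2 and 3 and 29.1, 38.9 and 41.4 in wild type replicates 1, 2 and 3 (log2 fold change -1.02, SE 0.21; limma, adjusted p = 0.067). Cyp2c40 had 6.55, 2.78 and 2.26 FPKM in the knockout and 6.71, 10.9 and 12.4 in wild type (log2 fold change -1.24, SE 0.31; limma, adjusted p = 0.15). Neither gene's groups overlapped, although for Cyp2c40 the replicate 1 libraries of both genotypes were nearly equal. Cyp2c68 passed without knockout replicate 1 (limma, adjusted p = 0.0050) or wild type replicate 1 (0.043), and Cyp2c40 without knockout replicate 1 (0.0093). Together Cyp2c67, Cyp2c68 and Cyp2c40 summed to 191, 130 and 117 FPKM in the knockout and 249, 318 and 347 in wild type, a ratio of 0.479. The other Cyp2c genes had a ratio of 0.947 when Cyp2c70 (ratio 0.603) was also left out. Both groups were picked after their values were seen, so the contrast between them follows from the choice. All Cyp2c members together had a ratio of 0.787. These neighbours share much sequence: 55.5% of the 31-base words of Cyp2c67 and 53.6% of those of Cyp2c68 occur in Cyp2c40. Reads may have been divided among them, which affects the sum less than the single values. The closest copy of Cyp2c40 is Cyp2c69, with 46.6% of its words. Cyp2c69 is not among the members listed, so reads shared with it could also have entered or left the sum.

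**Figure D3:**
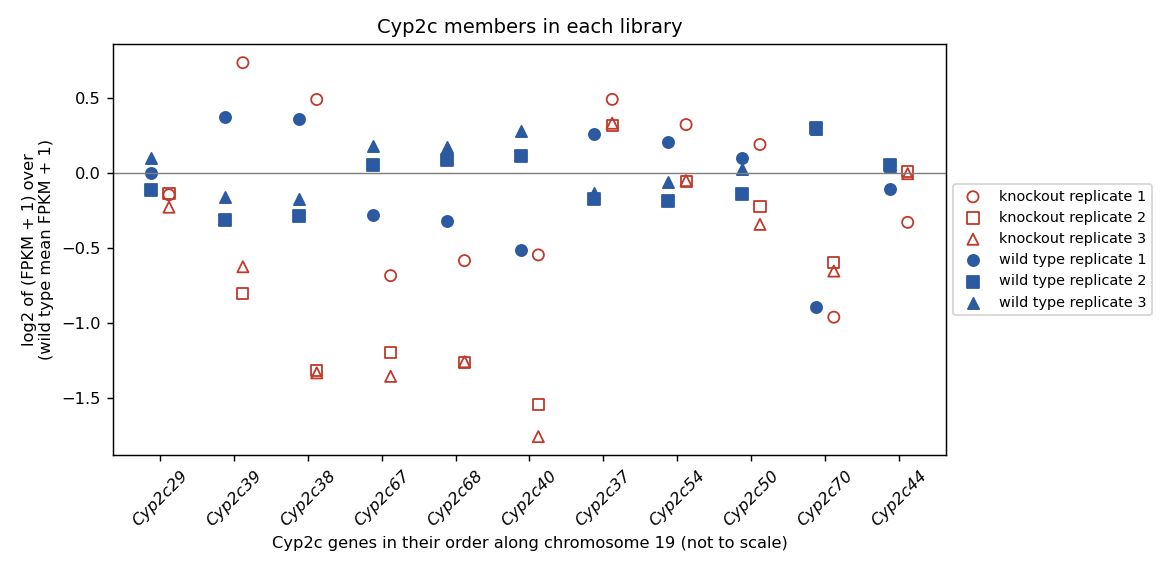
Each library's log2 of (FPKM + 1) over the wild type mean for the 11 tested Cyp2c genes, in their order along chromosome 19 and not to scale. Cyp2c67, Cyp2c68 and Cyp2c40 are lower in all knockout libraries. For these genes replicate 1 (circles) lies above replicates 2 and 3 in the knockout and below them in wild type. Replicate 1 lies above them in both genotypes for Cyp2c39 and Cyp2c38, and below them in both for Cyp2c70.

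Cyp2c70, the enzyme that makes muricholic acids in mice, had 125, 162 and 155 FPKM in knockout replicates 1, 2 and 3. Wild type replicates 1, 2 and 3 had 131, 302 and 301 FPKM. Wild type replicate 1 lay among the knockouts, and the other wild type libraries were well above them (log2 fold change -0.64, SE 0.28; limma, adjusted p = 0.50). Without wild type replicate 1 it passed (log2 fold change -1.03; limma, adjusted p = 0.011). No 31-base word of Cyp2c70 occurs in another gene of these families. Cyp2c29, the most abundant of the row, had 298, 299 and 281 FPKM in the knockout and 329, 304 and 353 in wild type (log2 fold change -0.17, 95% interval -0.42 to 0.09; limma, adjusted p = 0.70). Its groups did not overlap, but the gap of knockout replicate 2 to wild type replicate 2 was small.

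Cyp2c38 and Cyp2c39 were highest in replicate 1 of both genotypes. Cyp2c38 had 15.3, 3.67 and 3.61 FPKM in knockout replicates 1, 2 and 3 and 13.9, 8.54 and 9.32 in wild type replicates 1, 2 and 3. Cyp2c39 had 56.4, 18.8 and 21.4 FPKM in the knockout and 43.7, 26.7 and 29.9 in wild type. In Cyp2c38 replicate 1 exceeded the mean of replicates 2 and 3 by a factor of 4.21 in the knockout and 1.56 in wild type. In Cyp2c39 the factors were 2.81 and 1.54. Neither passed (limma, adjusted p = 0.66 and 0.93). The annotated span of Cyp2c39 contains Cyp2c38, and 22.0% of the words of Cyp2c39 occur in Cyp2c38. A part of their reads could thus have been divided between them. Cyp2c37 was higher in all knockouts, at 48.7, 43.1 and 43.6 FPKM against 41.5, 30.4 and 31.2 (log2 fold change 0.40, SE 0.14; limma, adjusted p = 0.37). Cyp2c54, Cyp2c50 and Cyp2c44 had log2 fold changes of 0.08, -0.12 and -0.10, and did not pass.

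The Cyp2d genes code for steroid and drug hydroxylases, and Cyp2d9, a male-biased testosterone hydroxylase gene, was the most abundant member of all. It stood at 880, 974.6 and 959 FPKM in knockout replicates 1, 2 and 3, against 1084, 774 and 745 in wild type replicates 1, 2 and 3. Wild type replicate 1 was the highest library and the other wild types the lowest (log2 fold change 0.13, 95% interval -0.22 to 0.49; limma, adjusted p = 0.88). Cyp2d10 had 408, 461 and 437 FPKM in the knockout and 517, 401 and 416 in wild type (log2 fold change -0.02, 95% interval -0.32 to 0.28; limma, adjusted p = 0.98). Cyp2d40 was the single Cyp2d gene without overlap, at 41.6, 47.7 and 52.7 FPKM in the knockout and 36.2, 36.0 and 33.9 in wild type (log2 fold change 0.40, SE 0.13; limma, adjusted p = 0.27). None of the 7 tested Cyp2d rows passed, including the transcribed pseudogenes Cyp2d13 and Cyp2d37-ps. Cyp2d10 shares 48.6% of its words with other members.

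All 4 Cyp2a genes had negative fold changes (median -0.42), and none passed. Cyp2a12 had 271, 257 and 227 FPKM in knockout replicates 1, 2 and 3 and 276, 313 and 326 in wild type replicates 1, 2 and 3, without overlap (log2 fold change -0.28, SE 0.13; limma, adjusted p = 0.50). Cyp2a5, the coumarin 7-hydroxylase gene, had 103, 70.3 and 59.3 FPKM in the knockout and 118, 93.9 and 97.8 in wild type (log2 fold change -0.44, SE 0.19; limma, adjusted p = 0.49). Replicate 1 was the highest library of each genotype, and without knockout replicate 1 Cyp2a5 passed (limma, adjusted p = 0.049). Cyp2a4, a female-biased gene that shares 55.9% of its words with Cyp2a5, had a log2 fold change of -0.60 (limma, adjusted p = 0.27). Of the 11 genes on a list of female-biased members 4 could be tested, Cyp2a4, Cyp2c38, Cyp2c39 and Cyp2c40. All 4 were negative and none passed with all libraries.

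Cyp2j5, an epoxygenase of arachidonic acid, had 150, 143 and 141 FPKM in knockout replicates 1, 2 and 3 and 161, 183 and 190 in wild type replicates 1, 2 and 3. The groups did not overlap (log2 fold change -0.30, SE 0.12; limma, adjusted p = 0.41). Cyp2j6 had 23.2, 22.2 and 20.6 FPKM in the knockout and 23.3, 26.2 and 27.2 in wild type, with a log2 fold change of -0.21 (limma, adjusted p = 0.64). Its lowest wild type and highest knockout value were nearly equal. Cyp1a2, the caffeine-metabolizing P450 of pericentral hepatocytes, had 258, 252 and 246 FPKM in the knockout and 313, 262 and 260 in wild type. These values did not overlap, yet differed little (log2 fold change -0.14, 95% interval -0.40 to 0.13; limma, adjusted p = 0.78). Cyp2f2, a P450 of periportal hepatocytes, had 270, 404 and 399 FPKM in the knockout and 219, 434 and 376 in wild type. Its 2 lowest values were the replicate 1 libraries, and the genotypes overlapped (log2 fold change 0.09, 95% interval -0.46 to 0.65; limma, adjusted p = 0.96). Of 6 tested pericentral and 6 tested periportal marker genes, lists that hold Cyp1a2 and Cyp2f2 themselves, none passed with all libraries (median log2 fold changes 0.24 and 0.34). Cyp2r1, a vitamin D 25-hydroxylase gene, had 3.10, 2.92 and 3.44 FPKM in the knockout and 5.37, 4.20 and 2.77 in wild type (limma, adjusted p = 0.72). Cyp2u1, a fatty acid hydroxylase gene, had 2.27, 3.61 and 3.48 FPKM against 2.50, 3.71 and 4.07 (limma, adjusted p = 0.94).

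The 14 untested members stayed at or under 0.70 FPKM in every library, and 10 of them were listed at 0 in at least 1 library. They were Cyp1a1, Cyp1b1, Cyp2b13, Cyp2c53-ps, Cyp2c55, Cyp2d11, Cyp2d12, Cyp2d34, Cyp2g1, Cyp2j8, Cyp2j13, Cyp2s1, Cyp3a41a and Cyp3a44. Cyp1a1, the most inducible target of the aryl hydrocarbon receptor, stood at 0.16, 0.16 and 0.17 FPKM in the knockout and 0.21, 0.24 and 0.53 in wild type.

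With replicates 2 and 3 of each genotype alone, 15 of the 34 tested members passed, 5 upward and 10 downward (limma, Benjamini-Hochberg), where 6.92% of all tested genes rose and 4.95% fell. Those that rose were Cyp2b10, Cyp2c37, Cyp2d9, Cyp2d40 and Cyp3a11. Those that fell were Cyp2a4, Cyp2a5, Cyp2a12, Cyp2c38, Cyp2c39, Cyp2c40, Cyp2c67, Cyp2c68, Cyp2c70 and Cyp2j5. In the same fit 4 of 5 macrophage markers fell (limma, adjusted p = 0.011 for Adgre1, 0.0038 for Clec4f, 0.036 for Cd68 and 0.0032 for Vsig4), and their part in the members' differences was not tested. Of the other marker lists, 4 of 6 periportal genes (Ass1, Hal, Pck1 and Sds), 2 of 6 pericentral genes (Glul and Slc1a2) and 2 of 5 hepatocyte genes (Apoa1 and Tat) rose there, and the endothelial gene Lyve1 fell. This comparison rests on 2 libraries per genotype, and what set replicate 1 apart was not tested.

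**Figure D4:**
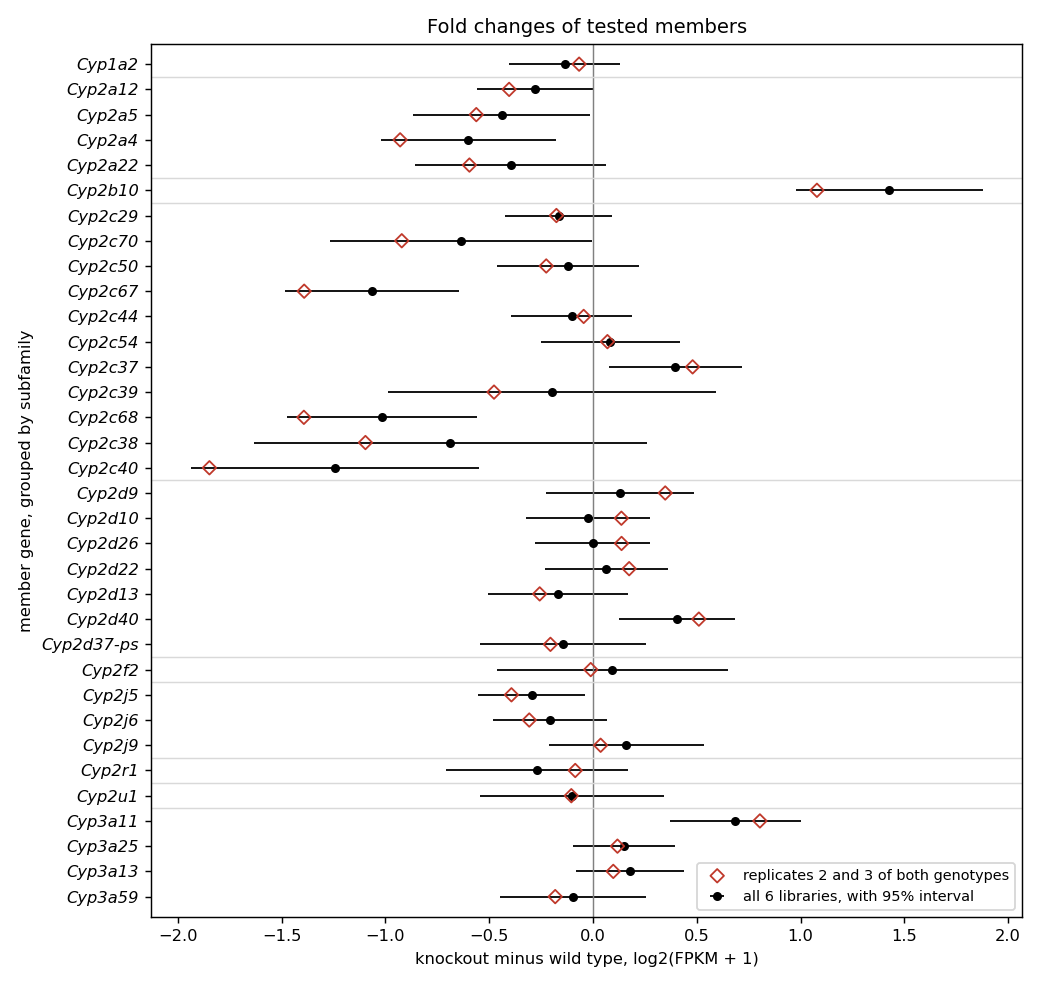
Log2 fold change, knockout minus wild type on log2(FPKM + 1), of the 34 tested members with all 6 libraries (black, bars are 95% intervals) and with replicates 2 and 3 of both genotypes (red diamonds). Cyp2b10 at 1.43 and Cyp2c67 at -1.06 are the members that passed with all libraries.

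Genes that serve or control these enzymes were read from 3 further lists. Of 18 tested receptors and regulators none passed with all libraries (median log2 fold change 0.17). In replicates 2 and 3 alone 5 rose (Cebpa, Cebpb, Nr1i2, Nr1i3 and Ppp1r16a) and 2 fell (Hsp90ab1 and Nfe2l2). Nr1i2, which encodes PXR, had 26.2, 28.6 and 29.0 FPKM in knockout replicates 1, 2 and 3 and 22.0, 21.7 and 22.7 in wild type replicates 1, 2 and 3. The groups did not overlap (log2 fold change 0.32, SE 0.11; limma, adjusted p = 0.36). Nr1i3, which encodes CAR, had 92.7, 103 and 114 FPKM in the knockout and 97.4, 79.2 and 78.2 in wild type, which overlap (log2 fold change 0.28; limma, adjusted p = 0.54). Hnf4a had 93.5, 98.2 and 100.02 FPKM in the knockout and 65.6, 87.4 and 80.4 in wild type, without overlap (log2 fold change 0.33; limma, adjusted p = 0.44). Ahr had a log2 fold change of 0.10 (limma, adjusted p = 0.93). Hsp90ab1 had 241, 277 and 283 FPKM in the knockout and 331, 425 and 403 in wild type. Its knockout values were all below its wild type values (log2 fold change -0.53, SE 0.13; limma, adjusted p = 0.16). Of the 18 genes, 13 had positive and 5 negative fold changes.

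None of 12 genes of electron supply and heme turnover passed with all libraries, and 10 had negative fold changes (median -0.14). In replicates 2 and 3 alone Por and Alas1 rose and Hmox1, which encodes a heme-degrading enzyme, fell (limma, adjusted p = 0.0013, 4.6e-05 and 0.020). Por, the reductase that feeds these P450s, was one of the others, at 297, 296 and 335 FPKM in knockout replicates 1, 2 and 3 and 260, 203 and 176 in wild type replicates 1, 2 and 3. Its groups did not overlap (log2 fold change 0.55, SE 0.15; limma, adjusted p = 0.20). Alas1, the rate-limiting enzyme of heme synthesis in liver, had 103, 262 and 266 FPKM in the knockout and 199, 132 and 120 in wild type. Knockout replicate 1 was its lowest library and the other knockouts its highest (log2 fold change 0.40, SE 0.34; limma, adjusted p = 0.78). Cyb5a, which encodes cytochrome b5, had a log2 fold change of -0.17 (limma, adjusted p = 0.78). Alas2, which encodes the heme synthesis enzyme of red blood cell precursors and was listed here as a red blood cell marker, had 10.4, 9.28 and 8.65 FPKM in the knockout and 44.1, 49.5 and 50.01 in wild type. It fell, with no overlap (log2 fold change -2.23, SE 0.13; limma, adjusted p = 2.0e-05). The other red blood cell marker tested, Hba-a1, ranged from 114 to 225 FPKM in the knockout and from 94.3 to 299 in wild type, which overlap.

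Of 18 tested other targets of CAR, PXR and the aryl hydrocarbon receptor, Gadd45b rose, none fell and 17 did not pass (median log2 fold change -0.15). In replicates 2 and 3 alone 4 rose (Abcc3, Ces2a, Gadd45b and Slco1a4) and 6 fell (Aldh1a7, Gsta1, Gstm1, Gstm3, Nqo1 and Ugt2b34). Gadd45b, a stress-inducible gene that CAR activators raise, had 3.26, 5.84 and 5.09 FPKM in knockout replicates 1, 2 and 3 and 1.41, 1.91 and 1.38 in wild type replicates 1, 2 and 3 (log2 fold change 1.14, SE 0.20; limma, adjusted p = 0.037). It did not pass when knockout replicate 2 or 3 was left out (limma, adjusted p = 0.19 and 0.14), nor without wild type replicate 1, 2 or 3 (0.071, 0.077 and 0.16), nor with no filter (0.15). Slco1a4, an organic anion transporter gene under CAR and PXR control, had 16.1, 10.1 and 11.2 FPKM in the knockout and 6.90, 4.72 and 6.83 in wild type. It was higher in every knockout and did not pass (log2 fold change 0.90, SE 0.20; limma, adjusted p = 0.094). Nqo1, a quinone reductase gene, had 1.30, 1.15 and 0.87 FPKM in the knockout and 2.34, 2.62 and 1.93 in wild type. It was lower in every knockout and did not pass (log2 fold change -0.65; limma, adjusted p = 0.15). Ugt2b34 (log2 fold change -0.49; limma, adjusted p = 0.16) and Tiparp (-0.20; 0.72) were also lower in every knockout without passing. Ces2a and Ugt1a1 had log2 fold changes of 0.07 and -0.15 and did not pass with all libraries.

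**Figure D5:**
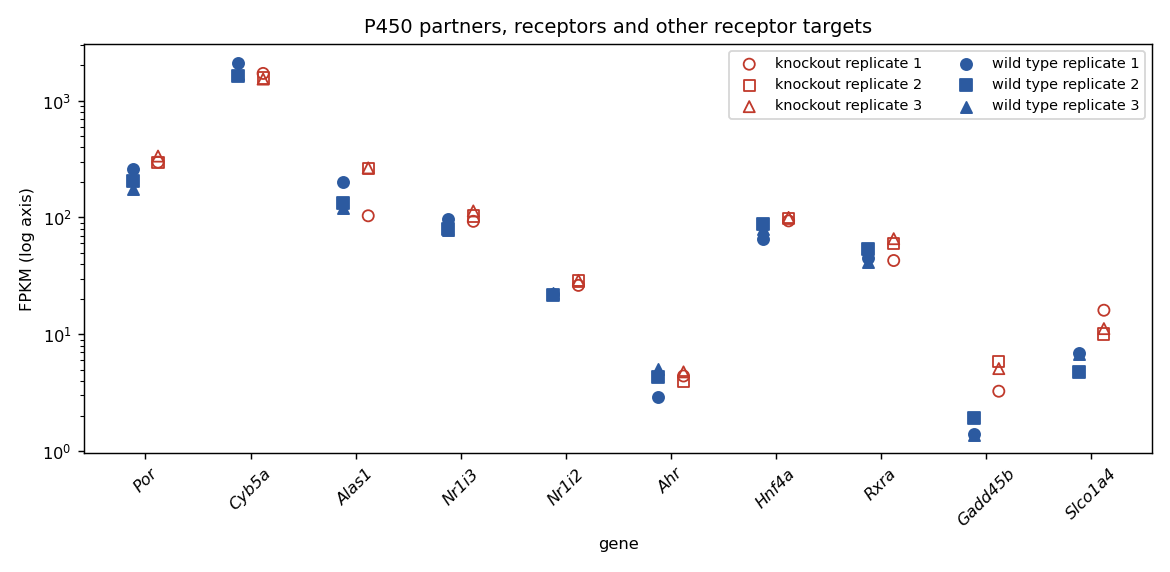
FPKM on a log axis of 10 partner, receptor and target genes in each library (open red knockout, filled blue wild type; symbols mark replicates). Por, Nr1i2, Hnf4a, Gadd45b and Slco1a4 are higher in every knockout library than in any wild type library, and Gadd45b is the gene of these that passed the test. Gadd45b and Slco1a4 are the only other receptor targets plotted. Of the 18 such targets tested, 7 had positive and 11 negative fold changes. Nqo1, Ugt2b34 and Tiparp, not plotted, were lower in every knockout library than in any wild type library.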

How the data were processed

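Liver RNA was extracted with a Qiagen miRNeasy kit and made into libraries with an Illumina TruSeq RNA kit, per the labels' protocols. HISAT and build mm10 are named in the submitters' processing notes. No source used here names the counter, its annotation or its strand setting. Values were deposited as FPKM, scaled by the authors to transcript length and library size, given to 2 decimals. Low values of short genes (450 to 1200 bases) fell near steps, which put depth very roughly at 8.25 to 10.8 (in units of 1e6 fragments) (67.2% to 71.9% of values within 0.15 of a whole step, 30% by chance, fitted to the same values), and no count test was run.

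Samples were grouped by title and genotype. limma 3.58.1 in R 4.3.3 (lmFit, eBayes with trend) was run on log2(FPKM + 1), and an adjusted p under 0.05 was called. The pseudocount understates changes of low genes. The labels do not say how samples were taken, and p-values therefore measure only how these samples vary, which may be technical. The script was checked on simulated data. Same-numbered samples deviated together from their group means (r = 0.30, 0.20 and 0.157 over tested genes for replicates 1, 2 and 3, values that are not independent since deviations sum to 0). Knockout replicate 3 with wild type replicate 2 gave 0.212, above the same-numbered pairs 2 and 3. A fit with the replicate as a block was therefore an alternative. Others were a pseudocount of 0.1, no filter, sample weights, no trend, 2 scalings, each library left out, and replicate 1 left out. All 48 members matched RefSeq by gene identifier. Shared 31-base words come from GENCODE M21 transcripts.

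Named members are 4 markers, those past the threshold, the 2 most abundant tested per subfamily, and those without overlap whose log2 fold change was at least 0.5 in size; others were named after their values were seen. Members and lists were chosen with earlier results of these data known.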

Additional observations from a re-analysis of the deposited data

How the results depend on the processing

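Among all tested genes 47 rose and 29 fell, and among members 1 and 1 (limma, adjusted p under 0.05). With a pseudocount of 0.1 these were 41 and 23, members 1 and 1. With no filter on low values they were 25 and 7, members 0 and 0. The replicate block, which pairs same-numbered libraries, gave 42 and 30, members 0 and 0. Sample quality weights gave 597 and 554, members 4 and 9. Without a variance trend 38 rose and 18 fell, members 1 and 0. Median-ratio scaling gave 47 and 23, members 1 and 0, and scaling every library to the same sum 47 and 24, members 2 and 1. Replicates 2 and 3 of both genotypes gave 690 and 493, members 5 and 10. Leaving out each library in turn gave 21 to 124 genes that rose and 8 to 87 that fell, members 0 to 2 and 0 to 5, with the highest counts of all genes without knockout replicate 1 and the lowest without knockout replicate 2. The cause of these shifts was not tested.

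The log2 ratio of the members' sums was -0.07, -0.035 with median-ratio scaling, and -0.080 to -0.051 with each library left out. Among named members, log2 fold changes that were not called changed sign in 3. Cyp2d10 was 0.12 with sample weights, 0.0084 with median-ratio scaling, 0.14 in replicates 2 and 3, and -0.093 to 0.091 with each library left out. Cyp2f2 was -0.011 in replicates 2 and 3, and -0.20 to 0.29 with each library left out. Cyp2u1 was -0.26 to 0.056 with each library left out. The 3 libraries per genotype and FPKM without counts limit the precision, and members under 1 FPKM were not tested.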
